A study of Mus musculus with 6 samples.

Results

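The 3 libraries described here came from primary murine hepatocytes of C57BL/6J mice that had received adenovirus encoding β-gal, the bacterial enzyme beta galactosidase that served the study as its control protein. They were chosen by their sample labels and make up 3 of the 6 samples of the series. The other 3, which carried Aloxe3, were not used. The cells had been freed from the liver with collagenase, left overnight in growth medium and collected 24 h after the virus was added. No untransduced cells and no liver tissue were among the samples, so the level of a gene is described here and not its change from the liver, and effects of isolation, culture and virus cannot be told apart. The labels do not say whether the 3 libraries came from separate animals or cultures, so the SDs measure the spread between these samples, which may be technical.

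Levels are given in RPKM, reads per kilobase of exon scaled to the size of the library, in the order of replicates 1, 2 and 3. The size of each library, derived from the steps of its RPKM values, was 32265997, 32431318 and 29575553 reads, at which 3 reads on a gene of 1 kb are worth 0.093, 0.0925 and 0.101 RPKM. Replicate 1 stood somewhat apart from the others, as described with the spread between libraries. Only reads with a single place in the genome had been counted, so a gene that shares its sequence with copies elsewhere can be listed far below its true level. The share of a gene's 50-base windows found in another annotated gene is therefore given where it was high. The sources used here do not state that strand was counted, so overlapping genes cannot be told apart, and in such bulk samples fewer cells of a type cannot be told apart from less RNA per cell.

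The hepatocyte is the main cell of the liver. It secretes most proteins of the blood plasma, makes bile acids and urea, stores and releases glucose and detoxifies drugs. These functions are held up by a network of liver-enriched transcription factors and by contact with other cells and matrix, and isolated hepatocytes on plastic are known to lose many of them while they spread and build actin and keratin fibres.

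The markers of the hepatocyte were high in every library. Alb, which encodes albumin, the main carrier protein of plasma, lies at chr5:90460897-90476602 (build GRCm38, GENCODE M21), was at 4552, 4521 and 4499 RPKM and ranked 5, 4 and 4 among all genes. Hp, the hemoglobin scavenger haptoglobin, was at 797, 847 and 831 RPKM. Fgb, a chain of the clotting protein fibrinogen, was at 296, 302 and 318 RPKM, and Apoa2, an apolipoprotein of high-density lipoprotein, at 284, 286 and 270 RPKM. Ttr, the thyroid hormone and retinol carrier transthyretin, was the lowest of the 5 at 119, 131 and 122 RPKM and ranked 350, 302 and 335. All 5 thus lay among the 350 highest genes of each library. Aloxe3, the gene the study overexpressed in the other arm, was at 2.04, 2.06 and 1.74 RPKM in these control cells, rank 9639 by its mean.

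Of 41388 listed genes, 10715 were at 1 RPKM or more in every library, which is 25.9% of all genes, and 10153 of them encode proteins. A level of 10 RPKM or more in every library was reached by 4941 genes, 100 RPKM by 435 and 1000 RPKM by 28. At the other end, 17851 genes were listed at 0 in all 3 libraries. Protein-coding genes held 94.9% ± 0.281 (SD, n = 3) of the summed RPKM. The 10 highest genes held 13.5, 12.8 and 13.4% of it and the 100 highest 35.3, 35.2 and 35.2%. Ranked within each library, 377, 379 and 384 genes held 50% of the sum. The same 25 genes led all 3 libraries, and 95 genes were among the 100 highest of each.

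The highest gene was Clu, the secreted chaperone clusterin (apolipoprotein J; chr14:65968483-65981547), at 7445, 7514 and 7617 RPKM or 2.23% of the sum. It was followed by mt-Co1, a cytochrome oxidase subunit of the mitochondrial genome, at 6436 ± 122 RPKM, by Fth1, the heavy chain of the iron store ferritin, at 4938 ± 29.7 RPKM, and by Alb at 4524 ± 26.2 RPKM (mean ± SD, n = 3). The fifth, Sprr1a, encodes a proline-rich protein best known from the cornified layer of skin. Its level was 4573, 3641 and 3875 RPKM, so that it lay above Alb in replicate 1 and below it in replicates 2 and 3. Hpx, the heme carrier hemopexin, followed at 3754 ± 68.9 RPKM and B2m, the light chain of class I antigen-presenting molecules, at 3682 ± 80.0 RPKM. Of the 25 highest genes, 7 were encoded by mitochondrial DNA and 6 by genes for secreted plasma proteins (Clu, Alb, Hpx, Apoe, Gc and Mup3). The rest held 2 ribosomal proteins (Rplp1 and Rpl8), the cytoskeletal genes Actb and Krt18, the noncoding RNAs Gm26917, Gm42418 and Mir6236, and Eef2, the factor that moves the ribosome along. Spp1, which encodes the matrix protein osteopontin, was at 1447, 1431 and 1509 RPKM.

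Functional classes were compared by their share of the summed RPKM, which weighs transcripts irrespective of length. The 6 lists of secreted plasma proteins together held 8.82, 8.99 and 8.97% (8.93% ± 0.09, SD, n = 3). The other 10 hepatocyte lists, which cover metabolism, transport and transcription, held 1.8% ± 0.019 with 514 genes. The RNAs of the mitochondrial genome held 6.57, 6.42 and 6.74%, and the list of the cytoskeleton, with the surface and calcium-binding genes counted in it, 6.35, 5.96 and 6.05%, so that the mitochondrial share was the larger in every library. This order turned when genes with over 20% shared windows were left out, with 4.48% mitochondrial and 6.03% cytoskeletal, and in shares of derived reads, with 2.98% and 5.77%. Cytosolic ribosomal proteins held 3.22% ± 0.078, translation factors 2.44% ± 0.012, genes of the interferon response and antigen presentation 2.37% ± 0.029, metallothioneins and iron storage 2.2% ± 0.07 and the nuclear-encoded part of oxidative phosphorylation 1.97% ± 0.04. The lists together held 44.9% ± 0.13 of the sum.

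**Figure D1:**
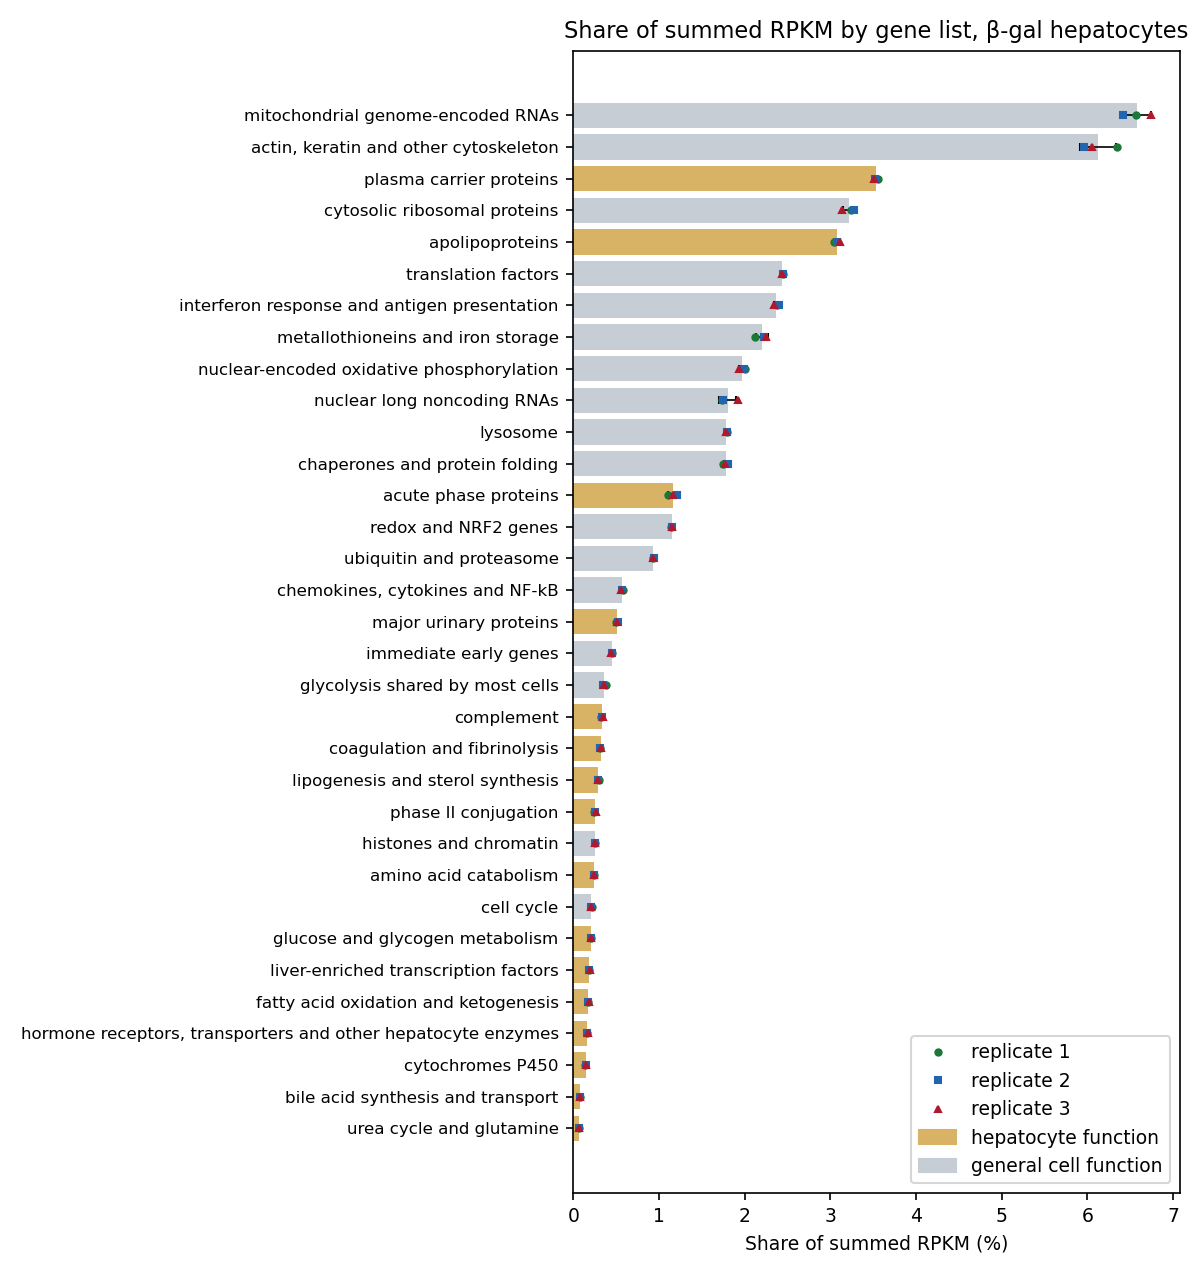
Share of the summed RPKM held by each gene list in the β-gal libraries. Bars are means over 3 libraries, error bars are the SD, points are the single libraries, and colour separates hepatocyte functions from general cell functions. The mitochondrial genome (6.58%) and the list of the cytoskeleton (6.12%, in which 27 of 92 members are not filament genes) are the largest on this scale, in an order that turns in shares of derived reads (2.98 and 5.77%) and without genes of over 20% shared windows (4.48 and 6.03%), and the urea cycle list (0.069%) is the smallest.

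Several mitochondrial and ribosomal genes have little sequence of their own for uniquely aligned reads. Of the 13 protein-coding genes of the mitochondrial genome, 7 were between 1343 and 6436 RPKM and 6 were listed at 0 in every library (mt-Atp6, mt-Atp8, mt-Co2, mt-Co3, mt-Nd3 and mt-Nd4l), though every respiring cell uses them. For 5 of the 6, 98.0 to 100.0% of the 50-base windows also occur in another annotated gene, and for mt-Atp8 none do. In mt-Co1 the shared part was 51.1%. Of 88 ribosomal protein genes, 53 shared more than 20% of their windows, and Rpl19 was listed at 1.06, 0.905 and 0.926 RPKM with 57.4% shared. With 6 mitochondrial genes listed at 0, the mitochondrial share of 6.58% can be too low. Without genes of over 20% shared windows the mitochondrial share was 4.48% and the ribosomal share 1.91%. This filter also takes out mt-Co1 and mt-Nd4 (62.2% shared), which were at high level. The glycolytic gene Gapdh, at 39.8 ± 1.30 RPKM, and the cytoplasmic actin gene Actg1, at 1.69 ± 0.214 RPKM, had 25.1% and 37.4% shared windows, and whether this lowered their levels was not tested. Genes named below at under 10 RPKM have under 5% shared windows unless a value is given. Other annotated genes overlap 73.5% of Mt2, 74.8% of Nr1i3, 64.5% of Igf2, 54.6% of Sox4 and 99.5% of Gm42418.

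Most of the liver's secreted proteins were at high level. Of 151 genes in the 6 lists, 84 (55.6%) were at 10 RPKM or more in every library and 35 at 100 RPKM or more, while 22 (14.6%) were under 1 RPKM in every library. Among all protein-coding genes, 22.6% were at 10 RPKM or more and 51.3% under 1 RPKM in every library. Among the 23 plasma carriers, Alb, Hpx and Gc, the vitamin D-binding protein, held 81.7% of the list's sum. Gc was at 1479, 1414 and 1409 RPKM, the bikunin precursor gene Ambp at 811, 810 and 792 RPKM and Rbp4, the retinol carrier, at 335, 306 and 306 RPKM. Among the lowest carriers was Serpina6, which binds glucocorticoids, at 0.528, 0.735 and 0.614 RPKM. Afp, the carrier of the fetal liver, was at 4.62, 4.38 and 4.72 RPKM.

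Among 18 apolipoproteins and lipoprotein assembly genes, Clu alone held 72.5% of the summed level. Apoe, a ligand of lipoprotein receptors, was at 1563 ± 38.2 RPKM, and Apob, the structural protein of very-low-density lipoprotein, at 238, 235 and 255 RPKM. Mttp, which loads lipid onto Apob, was at 10.1, 9.57 and 10.2 RPKM with 7.23% shared windows. Without Clu the share of all secreted plasma proteins fell from 8.93 to 6.85%.

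Acute phase proteins, which the liver releases in inflammation, counted 23 of 38 genes (60.5%) at 10 RPKM or more and 6 (15.8%) under 1 RPKM in every library. Among all protein-coding genes these shares were 22.6% and 51.3%. Hp led them, and among them were the serum amyloids Saa1 (297, 368 and 344 RPKM, with 31.5% shared windows) and Saa3 (168, 272 and 227 RPKM), the acid glycoprotein Orm1 (268, 325 and 319 RPKM, with 20.4% shared windows) and the siderophore-binding Lcn2 (233, 307 and 268 RPKM). In each of these the lowest library was replicate 1 and the highest replicate 2. Hamp, which encodes the iron hormone hepcidin, was instead highest in replicate 1, with 242, 218 and 183 RPKM. A2m, a protease trap of plasma, was at 0.0266, 0.0132 and 0.0217 RPKM.

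The 3 chains of fibrinogen, which are assembled in equal numbers, were at unequal levels. Fgb was at 305 ± 11.4 RPKM, while Fga was at 25.5, 28.98 and 31.98 RPKM and Fgg at 31.8, 30.6 and 33.1 RPKM. The levels of Fga and Fgg overlapped between libraries and those of Fgb lay far above both. Of 26 genes of coagulation and fibrinolysis, 17 (65.4%) were at 10 RPKM or more, against 22.6% of all protein-coding genes. Among the 17 was F2 (prothrombin) at 67.4, 66.4 and 68.1 RPKM. Only the carboxypeptidase subunit Cpn2 was under 1 RPKM in every library, 3.85% of the list against 51.3% of all protein-coding genes. Of 25 complement genes, 10 (40.0%) were at 10 RPKM or more and 4 (16.0%) under 1 RPKM in every library, against the same 22.6% and 51.3%. The central component C3 led them at 546, 562 and 567 RPKM, and C7, a part of the membrane attack complex, was listed at 0 in every library. Mup3 held 81.0% of the summed level of the 21 major urinary proteins, pheromone carriers that the male mouse liver makes, at 1351, 1436 and 1388 RPKM. In this family 16 genes shared more than 20% of their windows, so the levels of these 16 are uncertain. Mup3 shared 13.3%, and Mup4 and Mup5, both under 1 RPKM in every library, shared 12.4% and 17.1%.

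The metabolic functions of the hepatocyte lay under the secreted proteins as a group, and each list held high and low members. Of the 514 genes in the 10 other lists, 151 (29.4%) were at 10 RPKM or more, 163 (31.7%) were under 1 RPKM in every library and 38 were listed at 0. Against the 22.6% and 51.3% of all protein-coding genes, these lists were thus not low as a whole. Only 6 reached 100 RPKM in every library: Cyb5r3, Mgst1, Glud1, Shmt2, Aldh2 and Bhlhe40. Among all 665 hepatocyte genes, 185 were under 1 RPKM, and 129 were when genes with over 20% shared windows were left out. Exact read numbers were known for 132 of the 185, and 54 of these had at most 3 reads in every library.

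**Figure D2:**
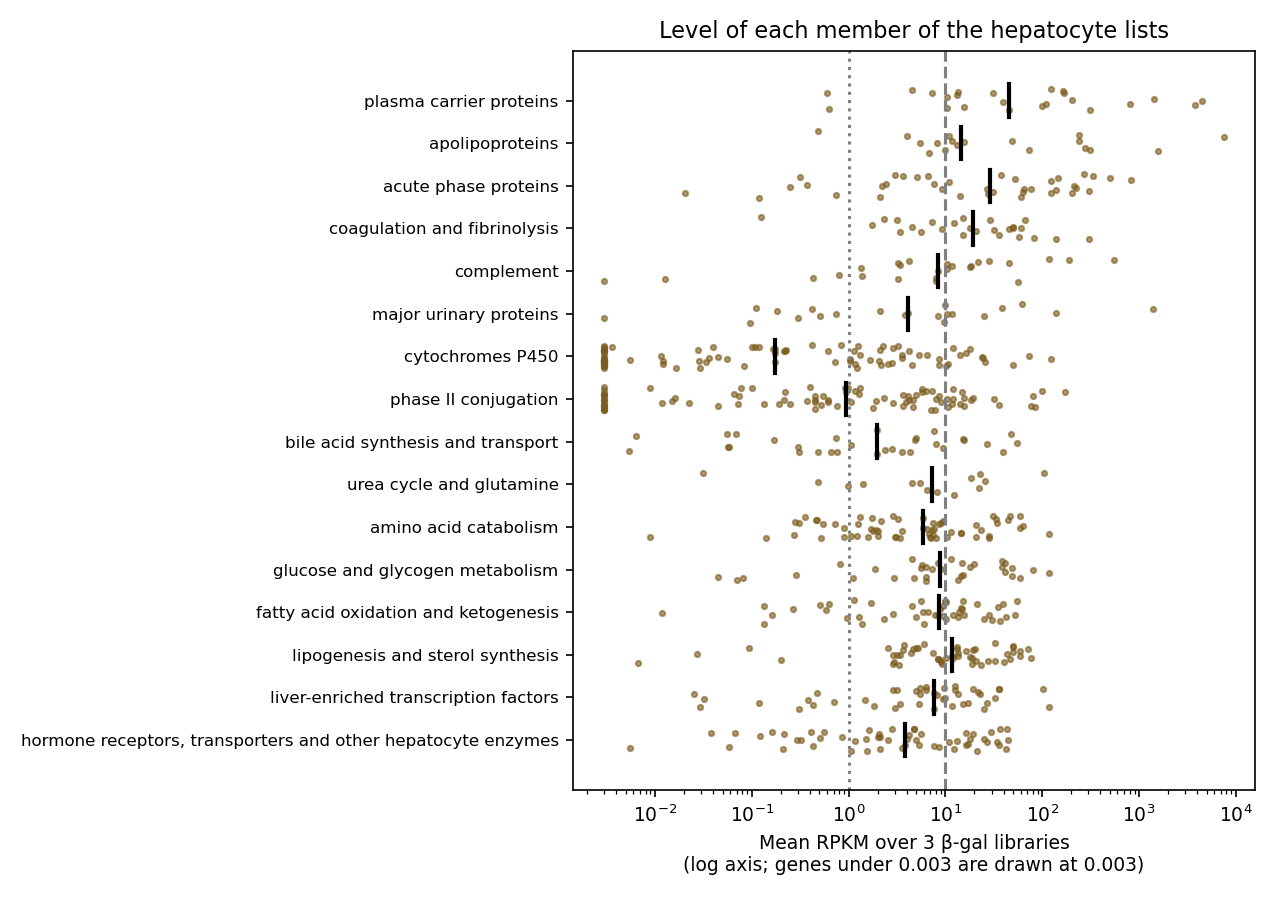
Mean RPKM over 3 β-gal libraries of each gene in the hepatocyte lists, on a log axis, with 1 point per gene and the list's median as a black bar. The dotted line is at 1 RPKM and the dashed line at 10 RPKM, and genes under 0.003 are drawn at 0.003. The median was 45.5 RPKM in plasma carriers and 0.176 RPKM in cytochromes P450.

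Cytochromes P450 oxidize drugs, steroids and fatty acids. The list of 87 genes, partner enzymes included, had 51 members under 1 RPKM and 22 at 0 in every library, with a median of 0.176 RPKM. Those under 1 RPKM were 58.6% of the list, against 51.3% of all protein-coding genes, and the 11 at 10 RPKM or more were 12.6%, against 22.6%. The highest members were not P450s but their electron donors: Cyb5r3 at 125, 122 and 126 RPKM, Por, which feeds all microsomal P450s, at 75.8, 71.0 and 72.8 RPKM, and Cyb5a at 44.5, 50.8 and 53.6 RPKM. The highest P450 by its mean was Cyp27a1, a mitochondrial sterol hydroxylase, at 25.6, 25.03 and 25.9 RPKM. Cyp2f2, a P450 of periportal hepatocytes, was at 23.2, 25.6 and 25.1 RPKM and lay above it in replicate 2, so the order of these 2 did not hold in every library. Several P450s that are abundant in the adult liver were low. Cyp2e1, which oxidizes ethanol, was at 2.24, 2.02 and 2.26 RPKM, Cyp1a2, which oxidizes caffeine, at 1.59, 1.25 and 1.11 RPKM, and Cyp3a11 (6.73% shared windows), the main drug-oxidizing form, at 0.767, 0.539 and 0.519 RPKM. In these 3 genes the spread was up to 22.6% of the mean, and replicate 1 was the highest for Cyp1a2 and Cyp3a11 but not for Cyp2e1.

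Phase II enzymes attach glutathione, glucuronate or sulfate. Of 89 genes, 17 were at 10 RPKM or more, 45 under 1 RPKM and 16 at 0 in every library, which is close to the 22.6% and 51.3% of all protein-coding genes. The microsomal glutathione transferase Mgst1 was at 175, 177 and 169 RPKM and the epoxide hydrolase Ephx1 at 94.1, 98.8 and 104 RPKM. Sult2a7, a sulfotransferase with no shared windows, was listed at 0 in every library.

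Bile acid genes held high and low members, with 6 of 31 (19.4%) at 10 RPKM or more and 13 (41.9%) under 1 RPKM, where all protein-coding genes gave 22.6% and 51.3%. Cyp7a1, the rate-limiting enzyme of bile acid synthesis, was counted with the P450s and was listed at 0 in every library, with 0 shared windows. Hsd17b4, which shortens the side chain, was at 39.6, 39.1 and 39.2 RPKM. Cyp27a1, given above and counted there, also acts in this synthesis. Slc10a1, which takes bile acids up from the blood, was at 1.19, 1.14 and 0.889 RPKM, and the second uptake carrier Slco1b2 at 0.0692, 0.0313 and 0.0686 RPKM. Abcb11, the pump into bile, was at 5.73, 4.61 and 4.41 RPKM. Of the Abcc family, 3 efflux pumps were higher: Abcc3 in the basolateral membrane was at 55.8, 54.2 and 55.8 RPKM, Abcc4 at 26.8, 26.3 and 27.5 RPKM, and Abcc2 in the canalicular membrane at 45.4, 47.5 and 49.8 RPKM. Abcc6 of the same family was under 1 RPKM in every library. Abcc2, Abcc3 and Abcc4 lay above Slc10a1, Slco1b2 and Abcb11 in every library.

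In the urea cycle, the first mitochondrial steps were low: Cps1, which fixes ammonia, was at 0.915, 0.988 and 1.05 RPKM and Otc at 1.36, 1.43 and 1.4 RPKM. Asl was at 22.4, 21.7 and 22.1 RPKM and Ass1, with 38.6% shared windows, at 11.9, 11.6 and 13.8 RPKM. Glud1, which releases ammonia from glutamate, was at 106, 102 and 104 RPKM and held 44.6% of this list's sum. In amino acid catabolism, 17 of 63 genes were at 10 RPKM or more, near the 22.6% of all protein-coding genes, and 11 (17.5%, against 51.3%) were under 1 RPKM. Shmt2 of mitochondrial one-carbon metabolism was the highest at 125, 119 and 110 RPKM, and Bhmt, which remakes methionine from betaine, was at 0.117, 0.167 and 0.14 RPKM with 26.1% shared windows.

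For several steps of carbohydrate metabolism the mouse has a liver form and a form found in most tissues, and in the sugar pairs given here the liver form was the lower. The liver glucose transporter Slc2a2 was at 0.901, 0.538 and 0.995 RPKM, and the widespread Slc2a1 at 65.0, 58.8 and 59.9 RPKM. For glycogen synthase the pair was Gys2 at 0.284 ± 0.0645 RPKM and Gys1 at 3.65 ± 0.168 RPKM (5.79% shared windows). Pyruvate kinase Pklr was at 80.4 ± 3.17 RPKM but lay under Pkm at 285 ± 10.1 RPKM, with 20.5% and 25.8% shared windows. Outside sugars, the same order was seen in methionine adenosyltransferase, with Mat1a at 7.495 ± 0.268 RPKM and Mat2a at 105 ± 0.948 RPKM. None of these pairs overlapped in any library. The carnitine palmitoyltransferases had the other order, with the liver form Cpt1a at 15.7 ± 0.476 RPKM and the muscle form Cpt1b at 0.237 ± 0.0348 RPKM with 78.6% shared windows. The pairs were picked after their values were seen.

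Among the enzymes that make glucose, Pck1, which commits carbon to gluconeogenesis, was at 0.0723, 0.0809 and 0.0592 RPKM, while its mitochondrial counterpart Pck2 was at 16.1, 15.5 and 14.6 RPKM. G6pc, which frees glucose for export, was at 0.0128, 0.0511 and 0.07 RPKM, and the widespread G6pc3 at 8.87, 8.41 and 8.2 RPKM. Pcx, pyruvate carboxylase, was at 14.0, 14.0 and 15.2 RPKM and Fbp1, fructose bisphosphatase, at 6.46, 6.32 and 6.26 RPKM. Pygl, liver glycogen phosphorylase, was at 49.0, 47.0 and 49.7 RPKM, so the list of 34 genes was not low throughout, with 16 (47.1%) at 10 RPKM or more and 5 (14.7%) under 1 RPKM, where all protein-coding genes gave 22.6% and 51.3%.

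Among the 10 metabolic and regulatory lists, the synthesis of fat and sterols had the largest part of its members at 10 RPKM or more. In lipogenesis and sterol synthesis, 27 of 52 genes (51.9%) were at 10 RPKM or more and 4 (7.69%) under 1 RPKM in every library, where all protein-coding genes gave 22.6% and 51.3%. Acly, which supplies cytosolic acetyl-CoA, was at 73.6, 72.8 and 70.4 RPKM, Fasn, fatty acid synthase, at 34.3, 32.5 and 30.3 RPKM, Scd1, the desaturase, at 59.2, 57.8 and 58.4 RPKM, and Srebf2, the regulator of sterol synthesis, at 45.2, 42.7 and 43.1 RPKM. In fatty acid oxidation, 17 of 46 genes were at 10 RPKM or more and 8 (17.4%) under 1 RPKM, with Acadl at 55.9, 56.0 and 54.8 RPKM and the gatekeeper Cpt1a at 15.2, 15.7 and 16.2 RPKM. The fatty acid-binding protein Fabp1, among the most abundant liver mRNAs, was at 4.15, 4.46 and 5.08 RPKM. Ppara, the receptor that drives oxidation in fasting, was at 1.41, 1.4 and 1.06 RPKM.

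Of 43 liver-enriched transcription factors, 16 (37.2%) were at 10 RPKM or more and 9 (20.9%) under 1 RPKM in every library, where all protein-coding genes gave 22.6% and 51.3%. Hnf4a, a master regulator of hepatocyte identity, was at 26.8, 25.4 and 28.6 RPKM, Cebpa, which favours the quiescent hepatocyte, at 18.1, 19.1 and 20.7 RPKM, and Cebpb, which acts in the acute phase, at 102, 99.5 and 102 RPKM. The pioneer factors Foxa1, Foxa2 and Foxa3 were at 7.71 ± 0.259, 9.81 ± 0.429 and 12.7 ± 0.613 RPKM. Of the receptors that sense drugs, Nr1i2 (PXR) was at 1.71, 1.77 and 1.97 RPKM and Nr1i3 (CAR), with 63.6% shared windows, at 0.0289 ± 0.0071 RPKM. Among 55 hormone receptors, transporters and other enzymes, 18 (32.7%) were at 10 RPKM or more and 15 (27.3%) under 1 RPKM. The growth factor receptor Egfr was at 42.7, 44.5 and 46.1 RPKM and the insulin receptor Insr at 18.9, 19.2 and 19.8 RPKM, while the asialoglycoprotein receptor chain Asgr1 was at 1.46, 1.65 and 1.83 RPKM.

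Promoter letters are shown because genes at high and at low level can carry the same element. The 100 bases before the start of 5 genes are given 5′ to 3′ on the gene's strand, from RefSeq in build GRCm38.p6. Capitals mark the letters TATAAA, the core of the TATA box. Alb stands for the most abundant plasma protein, Rbp4 for abundant secreted proteins with the element (a second RefSeq start of Rbp4, with the window at chr19:38125322-38125421, does not have it), Vim for the cytoskeleton, and G6pc and Cyp8b1 (a bile acid P450 at 0.12 RPKM on average) for genes with hardly any RNA. The window of Alb does not hold these letters. It ends at the RefSeq start used here, which lies before the GENCODE M21 start of Alb at 90460897. The bases between these starts are not shown, and whether they hold a TATA element was not tested.
Alb, chr5:90460770-90460869, plus strand: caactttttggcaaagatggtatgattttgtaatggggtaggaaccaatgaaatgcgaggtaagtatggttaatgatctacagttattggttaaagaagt
Rbp4, chr19:38124812-38124911, minus strand: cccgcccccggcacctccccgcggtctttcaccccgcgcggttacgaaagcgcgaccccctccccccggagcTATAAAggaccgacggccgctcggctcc
Vim, chr2:13574211-13574310, plus strand: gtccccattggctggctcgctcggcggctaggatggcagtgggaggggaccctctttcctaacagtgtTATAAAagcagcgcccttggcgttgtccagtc
G6pc, chr11:101367616-101367715, plus strand: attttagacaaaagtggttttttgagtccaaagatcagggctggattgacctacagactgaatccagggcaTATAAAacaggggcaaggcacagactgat
Cyp8b1, chr9:121916306-121916405, minus strand: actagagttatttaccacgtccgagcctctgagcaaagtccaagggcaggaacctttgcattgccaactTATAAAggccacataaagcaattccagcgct

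RefSeq promoter windows (250 bases before to 50 after the start) were found for 114 of the 151 secreted-protein genes and 401 of the 514 other hepatocyte genes. The letters TATAAA, on the gene's strand with the first base 38 to 22 bases before the start, occurred in 11 (9.65%) of the secreted-protein genes, in 24 (5.99%) of the others, and in 2.31% of the 27025 genes with a window. Among the other hepatocyte genes the 131 with a window and under 1 RPKM held TATAAA in 6.87%, and the 113 at 10 RPKM or more in 4.42%. These letters were thus also found before genes with hardly any RNA. Of 63 ribosomal protein genes none held them, and 22.2% began at the annotated start with C and 4 further bases of C or T, as in the TOP element of translation genes, against 3.01% of all genes.

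In the liver lobule, hepatocytes near the central vein and those near the portal vein divide the metabolic work. Of 28 pericentral genes, 4 were at 10 RPKM or more in every library (Aldh1a1, Glul, Cyp27a1 and Slc1a4) and 11 under 1 RPKM. These are 14.3% and 39.3% of the list, both under the 22.6% and 51.3% of all protein-coding genes. Glul, the glutamine synthetase of the innermost cells, was at 25.5, 25.9 and 25.7 RPKM, while Axin2 and Lgr5, targets of Wnt signaling there, were at 0.137 ± 0.0265 and 0.0103 ± 0.00451 RPKM. Of 30 periportal genes, 13 (43.3%) were at 10 RPKM or more and 5 (16.7%) under 1 RPKM, the latter including Pck1 and G6pc. Alb made up 85.1% of the summed level of the periportal list.

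The cells carried RNA of Y-linked genes. Ddx3y was at 14.3, 14.5 and 13.9 RPKM and Eif2s3y at 9.89, 10.4 and 9.67 RPKM, with Uty at 2.72 and Kdm5d at 2.21 RPKM on average, while Xist, which silences the X chromosome in females, was at 0.0173, 0.00516 and 0.0151 RPKM with 11.8% shared windows. Of 20 genes biased to the male liver, 3 were at 10 RPKM or more and 7 (35.0%) under 1 RPKM, again both below the shares of all protein-coding genes, led by Serpina1e at 496, 511 and 497 RPKM with 34.6% shared windows. Of 19 genes biased to the female liver, none was at 10 RPKM, 18 (94.7%) were under 1 RPKM and 11 were listed at 0 in every library, and 10 shared over 20% of their windows. The highest was Cyp2a4, a steroid hydroxylase, at 1.12, 1.33 and 1.32 RPKM with 38.8% shared windows.

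The list of the cytoskeleton also held membrane, adhesion, annexin, S100 and galectin genes. Its 65 filament and filament-binding genes held 4.64, 4.31 and 4.4% of the summed RPKM (4.45% ± 0.17), with 48 at 10 RPKM or more, 27 at 100 RPKM or more and 9 under 1 RPKM in every library. The other 27 members held 1.67% ± 0.037. Among all protein-coding genes 22.6% were at 10 RPKM or more. Actb, cytoplasmic actin, was at 3210, 3015 and 3006 RPKM, the keratins Krt18 and Krt8 at 2177, 2006 and 2089 RPKM and at 1192, 1038 and 1117 RPKM, and Vim, the intermediate filament of mesenchymal cells, at 1147 ± 95.9 RPKM. Krt8 and Krt18 are the keratin pair of the normal hepatocyte, and Krt8 shared 29.7% of its windows. The duct keratin Krt19 was at 51.0, 35.7 and 42.1 RPKM and Krt7 at 0.163, 0.131 and 0.0959 RPKM. Of 32 genes of matrix, adhesion and epithelial transition, 23 (71.9%) were at 10 RPKM or more. Fn1, fibronectin, was at 957, 899 and 928 RPKM, and the YAP targets Ccn1 and Ccn2 at 292 ± 18.9 and 244 ± 17.97 RPKM. Cdh1, the epithelial cadherin, was at 57.8, 52.4 and 56.1 RPKM, and the transition factors Snai2 and Twist1 at 3.88 ± 0.488 and 0.228 ± 0.152 RPKM. Of 26 genes named for fetal or tumour-like hepatocytes, 9 (34.6%) were at 10 RPKM or more and 12 (46.2%) under 1 RPKM, the latter near the 51.3% of all protein-coding genes. Vim, Pkm and Aldoa held 87.4% of that list's sum, while the fetal growth factor Igf2 was at 0.0163, 0.0377 and 0.0118 RPKM (62.1% shared windows) and Dlk1 was listed at 0.

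Iron, metal and redox genes were mostly at 10 RPKM or more, with 9 of 12 metallothionein and iron genes and 26 of 33 redox genes (78.8%) there in every library, against 22.6% of all protein-coding genes. Mt1, a metallothionein that binds zinc and copper, was at 1031, 1218 and 1225 RPKM, Mt2 at 573, 726 and 743 RPKM (45.85% shared windows) and Hmox1, which degrades heme, at 74.1, 97.1 and 101 RPKM. Replicate 1 was the lowest of the 3 for each. Of the redox genes, the peroxidase Gpx1 was at 588, 583 and 578 RPKM, the thioredoxin Txn1 at 561, 561 and 553 RPKM and the superoxide dismutase Sod1 at 486, 505 and 478 RPKM. Nqo1, a common NRF2 target, was at 3.31, 3.53 and 4.51 RPKM. Of 57 genes of protein folding, translocation into the endoplasmic reticulum and its stress response, such as Atf4 and Ddit3, 52 (91.2%) were at 10 RPKM or more, led by Hsp90ab1 at 840, 854 and 878 RPKM, while the heat-inducible Hspa1a was at 0.0627, 0.145 and 0.057 RPKM with 66.3% shared windows. Of 53 proteasome and ubiquitin genes 44 were at 10 RPKM or more, and of 55 lysosomal genes 43 (78.2%) were, with the cathepsin Ctsz at 808, 787 and 757 RPKM.

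Genes of inflammation and antigen presentation were present but uneven. Ccl2, which attracts monocytes, was at 740, 751 and 702 RPKM and held 38.1% of the sum of 60 chemokine, cytokine and NF-kB genes. Ccl5 was at 194, 183 and 188 RPKM and Cxcl1, which attracts neutrophils, at 156, 144 and 139 RPKM. Il10 and Ccl12 were listed at 0. Of the 60, 18 were at 10 RPKM or more and 22 (36.7%) under 1 RPKM, where all protein-coding genes gave 22.6% and 51.3%. Of 56 genes of the interferon response and antigen presentation, 26 (46.4%) were at 10 RPKM or more and 5 (8.93%) under 1 RPKM. The class I chains H2-K1 and H2-D1 were at 868, 893 and 866 RPKM and at 760, 761 and 742 RPKM, and Ifitm3, a barrier to virus entry, at 1080, 1033 and 977 RPKM. Interferon-induced genes spanned a wide range: the virus-tethering Bst2 was at 599, 594 and 586 RPKM and the regulator Irf7 at 131, 127 and 128 RPKM, while Mx1 was at 0.587, 0.406 and 0.436 RPKM and Oas2 at 0.265, 0.256 and 0.38 RPKM, and Ifnb1, which encodes interferon beta, was listed at 0. Uninfected cells were not among the samples, so the part of the virus in these levels was not tested.

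Growth-related genes were mixed. Of 28 immediate early genes 21 were at 10 RPKM or more, against 22.6% of all protein-coding genes, among them the stress factor Atf5 at 299, 300 and 289 RPKM and Junb at 153, 164 and 165 RPKM, while Fos was at 1.36, 0.996 and 1.35 RPKM. Of 41 cell cycle genes 17 (41.5%) were at 10 RPKM or more. Myc was at 154, 155 and 149 RPKM, the cell cycle inhibitor Cdkn1a at 82.3, 84.2 and 81.4 RPKM, and Mcm2, which licenses replication, at 41.6, 37.5 and 37.0 RPKM. The proliferation marker Mki67 was at 2.67, 2.36 and 2.63 RPKM and the mitotic cyclin Ccnb1 at 0.301, 0.197 and 0.0962 RPKM with 23.4% shared windows. Of 85 histone and chromatin genes 61 (71.8%, against 51.3% of all protein-coding genes) were under 1 RPKM and 63 shared over 20% of their windows.

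Markers of other cells were seldom at 10 RPKM or more. Of 109 such genes, 8 (7.34%) were at 10 RPKM or more and 73 (67.0%) under 1 RPKM in every library, where all protein-coding genes gave 22.6% and 51.3%. The lists differed in this. Under 1 RPKM were 30.0% of endothelial and 45.5% of Kupffer cell and macrophage markers, both below the share of all protein-coding genes. The shares were 77.3% for stellate cell and fibroblast, 69.2% for cholangiocyte and progenitor, 100.0% for lymphocyte and neutrophil and 88.9% for erythroid markers. None of the 22 Kupffer cell and macrophage markers reached 10 RPKM in every library, and their sum was 35.9, 31.1 and 28.3 RPKM. The highest was the lysozyme gene Lyz2 at 9.50, 7.75 and 6.65 RPKM (15.4% shared windows), the Kupffer marker Clec4f was at 0.0251, 0.0749 and 0.0411 RPKM, and the scavenger receptor Cd163 was listed at 0. Cd68, a macrophage marker that was counted in the lysosome list, was at 149, 147 and 149 RPKM. Of 20 endothelial markers, 3 were at 10 RPKM or more and 6 under 1 RPKM, and their sum was 96.3, 85.2 and 88.2 RPKM. Flt4, a lymphatic and sinusoidal growth factor receptor, was at 19.1, 18.4 and 19.2 RPKM, the endothelial cadherin Cdh5 at 16.4, 14.2 and 15.1 RPKM and Eng, a co-receptor of TGF-beta ligands, at 13.2, 10.98 and 11.6 RPKM. Of the sinusoidal markers, Stab2 was at 3.29, 2.71 and 2.83 RPKM and Lyve1 at 0.594, 0.438 and 0.415 RPKM.

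Of 22 stellate cell and fibroblast markers, 17 were under 1 RPKM, the sum lay between 74.1 and 75.7 RPKM, and Ecm1, a gene hepatocytes also express, held 73.9% of it. Collagen Col1a1 was at 2.53, 2.37 and 2.21 RPKM and Lrat, which stores vitamin A in stellate cells, was listed at 0. Among 13 cholangiocyte and progenitor markers, Spp1 held 92.7% of the sum, and Sox4 (54.1% shared windows) and Sox9 were at 70.3 ± 1.87 and 41.5 ± 0.777 RPKM. Of these 13, 9 were under 1 RPKM, such as Cftr, the chloride channel of bile ducts, at 0.012, 0.00397 and 0.00871 RPKM. All 23 lymphocyte and neutrophil markers were under 1 RPKM with a sum of 1.96, 1.32 and 1.45 RPKM, and 7 were listed at 0. Of 9 erythroid markers 8 were under 1 RPKM. How much these cells add to the levels of other genes was not tested.

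The 3 libraries were close to each other. Over the 10715 genes at 1 RPKM or more in each, Pearson's r of log2(RPKM + 1) was 0.997, 0.997 and 0.998 for the pairs 1 and 2, 1 and 3, and 2 and 3, a correlation across genes, which are not independent replicates. Levels within 10% of each other were found for 83.6, 82.0 and 89.7% of these genes, and 0.504, 0.439 and 0.392% differed by 1.5 times or more. The coefficient of variation (CV, SD over mean of the RPKM) had a median of 4.0% over the 10997 genes with a mean of 1 RPKM or more. In the genes with known read numbers it was 5.46% from 1 to under 10 RPKM, 3.03% from 10 to under 100 RPKM, 2.86% from 100 to under 1000 RPKM and 3.75% at 1000 RPKM and above. The SD over mean expected from counting error alone, derived from each gene's mean reads, had medians of 4.82%, 1.96%, 0.855% and 0.317%. The median of a CV from 3 libraries tends to lie under such an expected value, so these medians understate the spread beyond counting. The observed median lay above the counting value at every level, nearest to it from 1 to under 10 RPKM. Large values were found at both ends. A CV over 20% was seen in 5.67% of all genes from 1 to under 10 RPKM and 0.107% from 10 to under 100 RPKM. It was seen in 0.701% from 100 to under 1000 RPKM and 10.3% (3 of 29) at 1000 RPKM and above. As a check for a library deposited more than once, chi-square divided by its degrees of freedom was 5.56, 4.5 and 3.68 in the 3 pairs, so none of the pairs was as close as repeated sampling of 1 library.

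The genes that varied most were few and largely noncoding. Among the 10 with the largest CV at a mean of 10 RPKM or more, 6 do not encode proteins, and 5 of these 6 were highest in replicate 2. Gm23935 was at 669, 1278 and 765 RPKM, Mir6236 at 1436, 2496 and 1517 RPKM and Gm42418 at 1798, 2636 and 1777 RPKM, with 100.0, 0 and 94.9% shared windows. The leucyl-tRNA synthetase gene Lars2, at 61.9, 106 and 60.3 RPKM, and the antisense gene Gm15564, at 154, 236 and 131 RPKM, had the same pattern. Gm26917, rank 8 of all genes, was instead lowest in replicate 2, at 3473, 2654 and 4021 RPKM. Of the 6 noncoding genes, n-R5-8s1 is annotated as ribosomal RNA and was at 62.4, 56.7 and 84.5 RPKM. Whether ribosomal RNA left in the libraries adds to the levels of the other noncoding genes was not tested. Flnc, an actin crosslinker, was at 55.1, 38.1 and 37.4 RPKM, and the ribosomal protein gene Rps25, with 32.3% shared windows, at 31.1, 46.5 and 46.8 RPKM, both set apart by replicate 1. The steadiest genes included the proteasome subunit gene Psmd2 at 97.2, 97.2 and 97.2 RPKM and Sh3glb1 at 47.1, 47.1 and 47.1 RPKM. In so many genes some fall this close together, and their spread lies under their counting error.

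Replicate 1 was the library most unlike the others. It was the lowest for 42.5% of the 10997 genes and the highest for 32.1%. By list, it was the highest for 56 of 80 genes of the cytoskeleton list (40 of 56 of its filament genes), 23 of 30 genes of matrix and epithelial transition, 24 of 36 cell cycle genes and 10 of 14 glycolytic genes, with median log2 ratios to the mean of the other libraries of 0.07, 0.10, 0.12 and 0.06. It was the lowest for 30 of 43 phase II genes, 21 of 32 acute phase genes, 11 of 13 major urinary proteins and 18 of 34 liver-enriched transcription factors, with medians of -0.11, -0.07, -0.10 and -0.07. Not every hepatocyte list had replicate 1 low: it was the highest for 27 of 48 genes of fat and sterol synthesis and the lowest for 9. In some other lists it was about as often the highest as the lowest: among 21 plasma carriers it was the highest for 9 and the lowest for 8, and among 29 genes of glucose and glycogen metabolism the highest for 11 and the lowest for 9, with replicate 3 the highest for 15. The markers of endothelial cells and macrophages were mostly highest in replicate 1, for 12 of 14 and 7 of 10 with a mean of 1 RPKM or more, by medians of 0.21 and 0.30. Other marker lists did not share this clearly. Replicate 1 was the highest for 2 of 4 stellate cell and fibroblast markers (median 0.08). It was the highest for 1 of 4 cholangiocyte and progenitor markers (median -0.001). The part of these cells in the pattern was not tested. Over all genes the median was -0.01. Without replicate 1 the median CV was 2.75%, against 3.71% without replicate 2 and 3.41% without replicate 3.

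**Figure D3:**
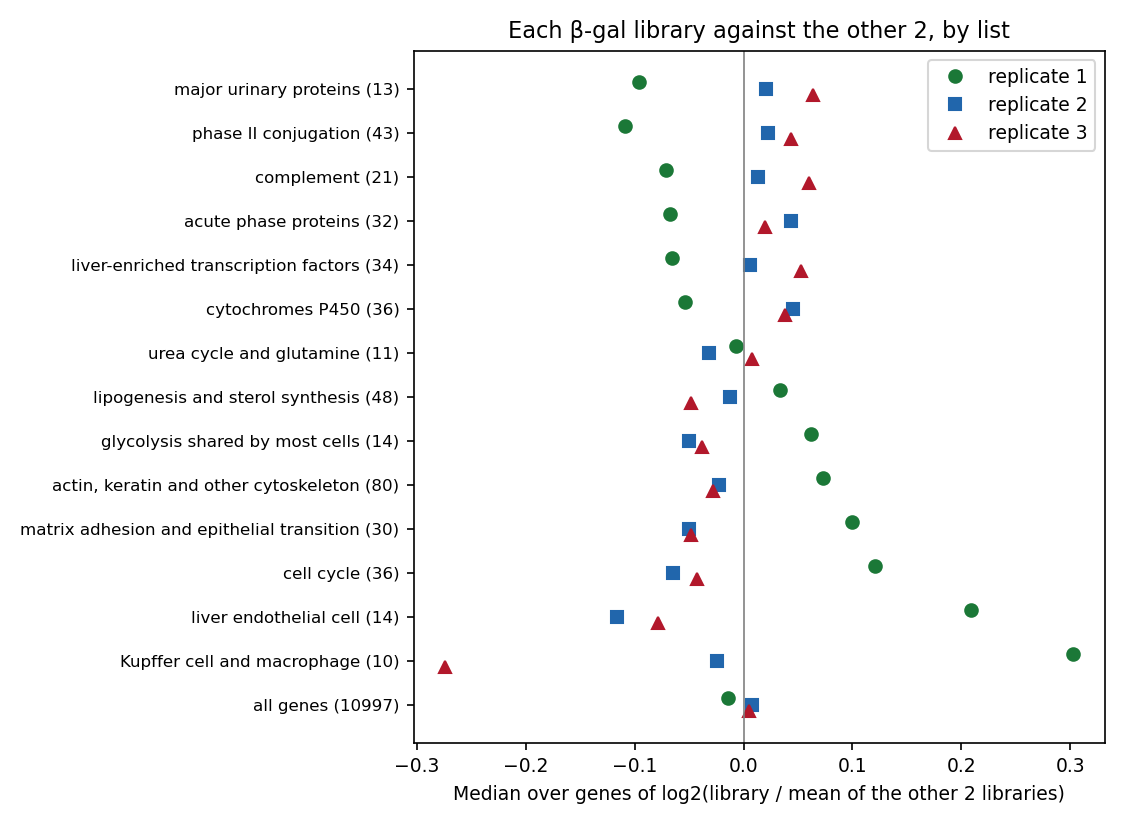
Median over the genes of a list of the log2 ratio of a β-gal library to the mean of the other 2, for 14 lists and for all genes, with the number of genes at a mean of 1 RPKM or more in brackets. The lists were chosen for display after their values were seen. Replicate 1 lies left of 0 for most hepatocyte lists and right of it for cytoskeleton, matrix, cell cycle and the markers of endothelial cells and macrophages.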

How the data were processed

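The authors aligned single reads of 50 bases with STAR 2.0.4b to the mouse genome (GRCm38.p2 in the submitters' processing notes), assigned reads with a single alignment and no ambiguity to genes with featureCounts 1.4.5, and deposited a table of RPKM that lists 41388 genes by Ensembl ID. The step from counts to RPKM is not given in the sources used here. Symbols and exon lengths came from GENCODE M21. Library sizes and reads were derived from the steps of the RPKM values and taken as whole within 0.02 of a read. Reads were known exactly for 15411 of the genes above 0, and only up to a whole factor for 8126. Means and SDs over the 3 libraries, shares and counts were computed in Python 3.11.15, and no comparison was tested, as the libraries are 1 group. Pairs of libraries were checked for duplicates by chi-square. A level called in every library had to be reached in each of the 3.

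The lists of genes were written by hand with earlier results of these data known, and their names fit most, not all, members. The genes named were the markers, the 25 highest, the highest and lowest members of each list, members that show where a pathway was split, Y-linked genes and those of largest and smallest CV. Other genes, such as Fga, Actg1, Axin2 and the isoform pairs, were picked once their values had been seen. The library-size and shared-window steps were tested on simulated data. Intervals of counting error cover counting only. Alternatives are in the closing section. Some genes and a promoter motif are not reported here.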

Additional observations from a re-analysis of the deposited data

How the results depend on the processing

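Leaving out any 1 library moved none of these values by as much as the bounds given below. The median CV was 2.75 to 3.71% with 1 library left out and 7.06% over all genes above 0 in every library. Without the mitochondrial genome in the denominator, 475 genes held 50% of the summed RPKM in place of 380, and the shares were 9.55% for secreted plasma proteins, 3.44% for ribosomal proteins and 6.55% for the cytoskeleton. As shares of derived reads, which weigh long transcripts more, 718 genes held 50%, and the shares were 7.42% for secreted, 1.22% for ribosomal and 5.77% for cytoskeletal genes and 2.98% for the mitochondrial genome. With only genes at a mean of 1 RPKM or more, 369 genes held 50%. Without genes of under 200 exon bases the secreted share was 9.05%. In alternatives added after the data were seen, leaving out genes with over 20% shared windows gave shares of 9.29% (secreted), 4.48% (mitochondrial) and 1.91% (ribosomal), leaving out Clu gave 6.85% for secreted proteins, and leaving out the members of the cytoskeleton list that are not filament genes gave 4.52%. Rescaled to TPM, 375 hepatocyte genes reached 10 in every library in place of 235, and 15 markers of other cells in place of 8. At 20 RPKM the counts were 155 and 4, and at 5 RPKM 13 markers. Of 76 alternative values, the other 54 moved by less than the SD between libraries or, for the counts of genes at a level and the CV, by less than 1.5 times. The mitochondrial share has no value when its own genes leave the denominator. No paired analysis was possible because the libraries are 1 group and no test was run. Genes with identical copies cannot be measured with uniquely aligned reads at any depth, and levels near 0.1 RPKM on 1 kb rest on about 3 reads.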

Other observations

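Of 16 genes often used as references in expression studies, 14 (87.5%) were at 10 RPKM or more in every library, against 22.6% of all protein-coding genes. Their levels ran from B2m at 3663, 3770 and 3613 RPKM and Actb at 3210, 3015 and 3006 RPKM down to Tbp at 1.77, 1.8 and 1.9 RPKM. Replicate 1 was the highest for 10 of the 16 and replicate 3 the lowest for 10. The median CV of the 16 was 3.58%, against 4.0% over all genes at a mean of 1 RPKM or more. Hprt was at 62.1, 57.5 and 59.0 RPKM and Sdha at 62.5, 61.1 and 60.5 RPKM, both without shared windows, while Tbp shared 16.3% and Gapdh, Ppia and Pgk1 shared 25.1%, 17.3% and 53.9% of theirs.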
